A study of Mus musculus with 8 samples.

Results

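The circadian clock genes Arntl (also called Bmal1), Clock, Per1, Per2, Per3, Cry1, Cry2, Nr1d1, Nr1d2 and Dbp were examined in lactating mammary glands with and without the zinc finger transcription factor Th-POK. These 10 genes are the core loop of the oscillator and its best known output factor, and were chosen by name. Through the RefSeq accession printed for each probe, 17 of the 41174 probes of the array mapped to them. All 10 were among the 18749 genes with a probe, and all 10 were among the 14137 genes bright enough to be tested.

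The study asked what Th-POK, the product of Zbtb7b and a regulator of helper T cell fate, does in the mammary gland. RNA of No. 4 glands came from 8 female mice of the C57/Bl6 strain, 4 of them wild-type (WT) and 4 lacking Th-POK (KO), at lactation day 1, with 1 Agilent array of 1 colour for each dam. The KO mice were knockout mice with no restriction of the deletion to a cell type described, so the KO glands and their immune cells alike are taken to lack Th-POK, and no treatment was named for either genotype. The gland was taken whole, so fewer cells of a type and less RNA per cell cannot be told apart in any value below. The methods state that females of matched age were used. The hour at which glands were taken, the light schedule of the mice and the age of each dam on the arrays are not given in the sources used here. A signal is the log2 of the array brightness after quantile normalization over the 8 arrays, and a difference of 1 is a change of 2-fold.

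The labels were borne out by the targeted gene. Zbtb7b signals lay between 9.90 and 10.42 in WT dams and between 1.55 and 1.65 in KO dams, where the probe was well above background on 0 of 4 arrays, and it was at least 81.5-fold lower in KO dams (limma, adjusted p = 5.71e-09). Milk and luminal genes were bright in both genotypes, and the signal of the casein gene Csn2 was at least 17.695 on every array. The 4 WT arrays shared a slide and the 4 KO arrays shared a different slide, so genotype and slide cannot be told apart. Of the 14137 genes tested, 16.5% passed an adjusted p of 0.05 with limma and Benjamini-Hochberg adjustment, 7.53% with a higher and 8.96% with a lower signal in KO dams.

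In the clock, ARNTL and CLOCK form an activator that binds E-boxes in the promoters of the Per, Cry, Nr1d and Dbp genes. PER and CRY proteins return to block that activator, NR1D1 and NR1D2 (REV-ERB alpha and beta) repress Arntl through the ROR response element, and DBP activates further genes through the D-box. In most peripheral tissues Arntl therefore peaks at about the opposite time of day from Dbp, the Nr1d genes and the Per genes, and in the mammary gland several of these genes are known to change between pregnancy and lactation.

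These response elements can be read in the members' own start regions. RefSeq windows of the build GRCm38.p6, from 250 bases before to 50 bases after an annotated start, were at hand for 9 of the 10 members in 13 windows, and not for Per2. Letters were searched on both strands, as CACGTG for the E-box, CACGTT for its E-prime variant, TTATGNAA for the D-box and TAGGTCA for the core of the ROR response element. Of 32851 windows of 27025 mouse genes, 7.15% held the E-box, 4.68% the E-prime box, 3.38% the D-box and 2.61% the ROR core. The stretches below are those that held a match in a member, shown because these are the elements through which the loop acts. They are read 5′ to 3′ in the direction of the gene, and capitals mark the match, which reads as its reverse complement where the element lies on the other strand.
Arntl, ROR core (chr7:113207530-113207559, plus strand): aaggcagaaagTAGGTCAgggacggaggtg
Per1, E-box (chr11:69098753-69098818, plus strand): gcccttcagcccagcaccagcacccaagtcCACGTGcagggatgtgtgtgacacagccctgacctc
Per1, D-box (chr11:69098895-69098948, plus strand): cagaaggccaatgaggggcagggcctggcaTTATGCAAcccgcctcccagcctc
Per3, upstream D-box (chr4:151044833-151044900, minus strand): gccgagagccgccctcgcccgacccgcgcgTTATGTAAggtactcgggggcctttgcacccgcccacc
Per3, downstream D-box (chr4:151044786-151044853, minus strand): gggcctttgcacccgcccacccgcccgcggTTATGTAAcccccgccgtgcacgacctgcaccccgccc
Cry1, E-box (chr10:85185079-85185144, minus strand): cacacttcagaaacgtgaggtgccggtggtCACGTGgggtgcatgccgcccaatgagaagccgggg
Cry1, E-prime box (chr10:85185098-85185163, minus strand): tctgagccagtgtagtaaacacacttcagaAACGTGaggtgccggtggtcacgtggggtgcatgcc
Cry2, E-prime box (chr2:92434200-92434265, minus strand): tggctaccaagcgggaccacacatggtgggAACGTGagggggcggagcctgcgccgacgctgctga
Nr1d1, E-prime box (chr11:98775378-98775435, minus strand): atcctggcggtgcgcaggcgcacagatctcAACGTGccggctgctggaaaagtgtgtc

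The E-box was thus found in 2 members, the E-prime box in 3, the D-box in 2 and the ROR core in 1. Counted by window, as the shares above are, these were 2, 3, 2 and 1 of the 13 windows. Both stretches of Cry1 come from 1 window and overlap, and so do those of Per3, but no marked match overlapped another. The windows of Clock, Nr1d2 and Dbp held none of these letters, which says only that the letters are not in these windows. A match is a description of the sequence and not evidence of binding in these glands.

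None of the 10 members passed the test between genotypes with limma after Benjamini-Hochberg adjustment over all genes. At an unadjusted p under 0.05 there was 1, Cry2, against 36.3% of all genes tested. Signals of the 4 KO arrays lay wholly outside those of the 4 WT arrays for 1 member, again Cry2, while 24.1% of all genes tested were separated in that way. On the mean, 6 members were higher and 4 lower in KO dams, with a median difference (KO minus WT) of 0.13 against -0.02 over all genes tested. The intervals were wide for most members, and dams of a genotype lay far apart. With 4 arrays in each genotype, their number limits the precision of every value.

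**Figure D1:**
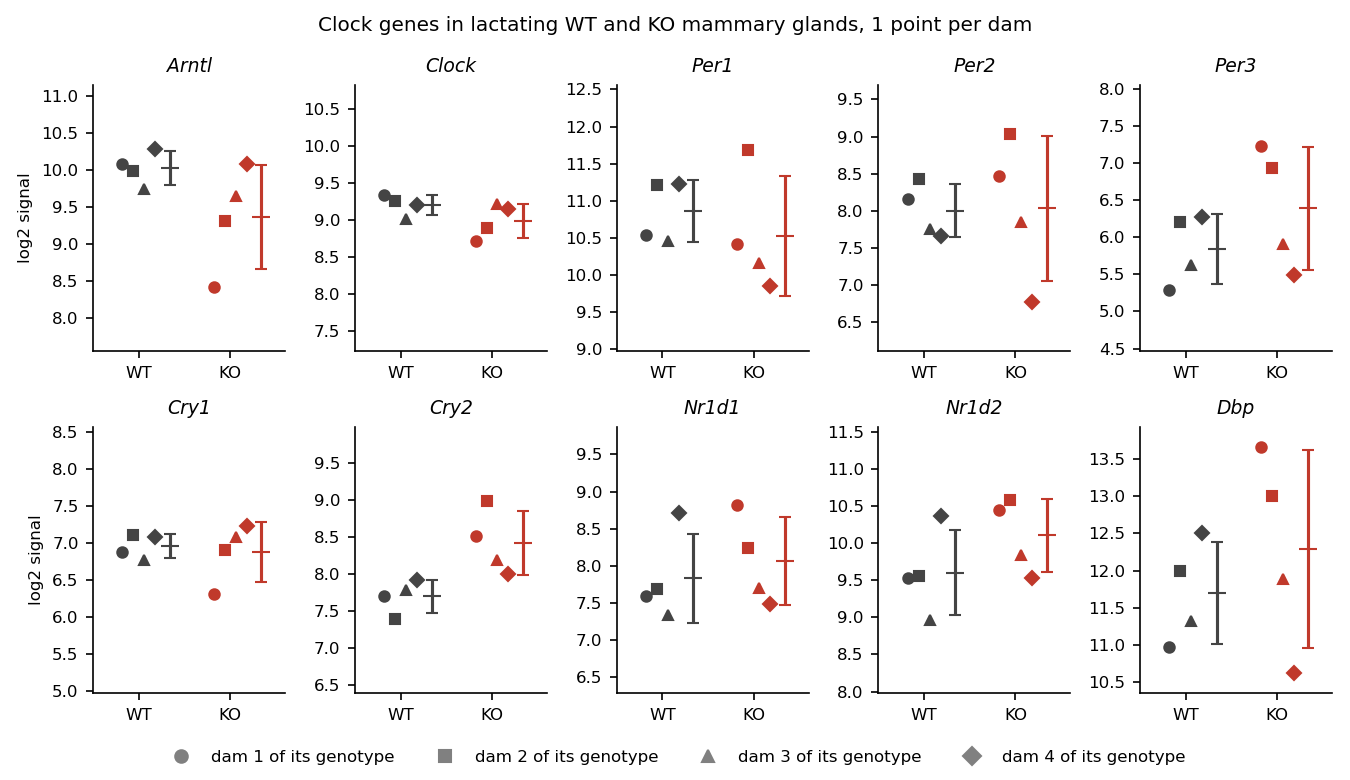
Log2 signal of the 10 clock genes, with 1 point for each dam, a symbol for its replicate number and a bar for the mean ± SD of the 4 dams of a genotype. Only for Cry2 do all KO points lie above all WT points, and the KO points of Dbp run from 10.62 to 13.67.

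Arntl, the activator that the rest of the loop depends on, had signals of 10.08, 9.99, 9.75 and 10.29 in WT dams 1 to 4 and of 8.42, 9.31, 9.65 and 10.08 in KO dams 1 to 4. KO dams 1, 2 and 3 lay below every WT dam and KO dam 4 lay among them. The difference was -0.66 (SE 0.32, 95% confidence interval -1.39 to 0.07, n = 4 per genotype, limma adjusted p = 0.169). Without KO dam 1 it was -0.35, and without KO dam 4 it was -0.90 with an adjusted p of 0.0665, the extremes of the 15 other ways in which it was computed.

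Clock, the partner of ARNTL, gave 9.34, 9.26, 9.01 and 9.21 in WT dams and 8.72, 8.89, 9.21 and 9.14 in KO dams. On this probe, its brightest, KO dams 1 and 2 were the lowest of the 8, as for Arntl, and the genotypes overlapped. The difference of -0.21 (SE 0.14) did not pass (limma adjusted p = 0.293). Probe A_52_P334677 of Clock also had KO dams 1 and 2 as the lowest, at 5.97 and 6.39. On probe A_52_P161365 KO dam 2 was the lowest at 6.42, but KO dam 1, at 6.74, lay inside the WT range of 6.56 to 6.91.

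Among the repressors, Cry2 had the smallest p. Its signals were 7.70, 7.40, 7.78 and 7.92 in WT dams and 8.52, 8.98, 8.20 and 8.002 in KO dams. Every KO dam was above every WT dam, with KO dam 4 only just above WT dam 4. The difference of 0.72 (SE 0.22, 95% confidence interval 0.23 to 1.22) had a limma adjusted p of 0.0538. It passed with the arrays scaled to their 75th percentile (adjusted p = 0.0475) and without KO dam 4 (adjusted p = 0.0355), and over all 16 alternatives the adjusted p ran from 0.0355 to 0.138. The other probe of Cry2 had a difference of 0.60 (limma adjusted p = 0.0633 when each probe was fitted separately), and on it the genotypes overlapped.

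Cry1 differed by -0.08 (SE 0.20, limma adjusted p = 0.805). Its lowest signal, 6.31, was in KO dam 1 and its highest, 7.23, in KO dam 4, and the WT dams lay between them at 6.76 to 7.10. Without KO dam 1 the difference was 0.11, so its direction rested on that dam.

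The Per genes, whose proteins carry the repressor complex into the nucleus, spread widely in KO dams on their brightest probes. Per1 signals were 10.54, 11.21, 10.45 and 11.22 in WT dams and 10.42, 11.69, 10.16 and 9.84 in KO dams. Per2 signals were 8.16, 8.43, 7.75 and 7.66 in WT dams and 8.47, 9.04, 7.85 and 6.77 in KO dams. On these probes KO dam 2 was the highest of the 8 for both genes and KO dam 4 the lowest. The WT dams thus lay inside the range of the KO dams. Probe A_52_P536869 of Per2 did not share this order. It gave 5.62, 6.11, 5.96 and 5.84 in WT dams and 5.79, 5.80, 5.59 and 6.02 in KO dams, with WT dam 2 the highest and KO dam 3 the lowest.

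Per1 differed by -0.33 (SE 0.39, limma adjusted p = 0.575) and Per2 by 0.03 (SE 0.44, limma adjusted p = 0.970). The direction of Per2 was not fixed by these data, since it ran from -0.31 without KO dam 2 to 0.45 without KO dam 4. Per3 signals were 5.29, 6.201, 5.62 and 6.27 in WT dams and 7.23, 6.93, 5.91 and 5.49 in KO dams. KO dams 1 and 2 were above every WT dam while KO dams 3 and 4 lay among them, and the difference of 0.54 (SE 0.41) did not pass (limma adjusted p = 0.365).

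Nr1d1 and Nr1d2 encode the nuclear receptors that repress Arntl. On its brightest probe Nr1d1 gave 7.59, 7.69, 7.33 and 8.71 in WT dams and 8.82, 8.24, 7.70 and 7.49 in KO dams. WT dam 4 and KO dam 1 were the highest, the genotypes overlapped, and the difference was 0.23 (SE 0.36, limma adjusted p = 0.677). Nr1d2 gave 9.53, 9.56, 8.97 and 10.37 in WT dams and 10.45, 10.58, 9.85 and 9.54 in KO dams. WT dam 4 again stood with KO dams 1 and 2 at the top, and the difference was 0.50 (SE 0.33, limma adjusted p = 0.300).

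The 3 probes of Nr1d1 disagreed. With each of 20838 probes fitted separately, of which 14.8% were called, probe A_52_P130952 differed by 0.09 (limma adjusted p = 0.8291) and probe A_52_P130961 by -1.06 (SE 0.27, limma adjusted p = 0.0374). On the latter the signals were 7.63, 8.59, 7.36 and 8.31 in WT dams and 6.79, 7.24, 6.64 and 6.99 in KO dams, and every KO dam was below every WT dam. In the RefSeq table the end of Nr1d1 overlaps that of Thra, the thyroid hormone receptor alpha gene, which is read from the other strand. Both Thra probes were higher in KO dams, by 0.84 (limma adjusted p = 0.0163) and 0.72 (limma adjusted p = 0.0287), opposite in direction to A_52_P130961. The direction of Nr1d1 therefore depended on the probe, and the part of Thra in this was not tested.

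Dbp, the output factor that acts on D-boxes, had the widest range of the members. Its signals were 10.97, 11.997, 11.31 and 12.50 in WT dams and 13.67, 13.01, 11.88 and 10.62 in KO dams. KO dams 1 and 2 were the highest of the 8 and KO dam 4 the lowest, and the 4 KO dams spanned 8.28-fold against 2.89-fold in WT dams. The difference of 0.60 had a 95% confidence interval of -0.85 to 2.05 (SE 0.64, limma adjusted p = 0.528). It was 0.14 without KO dam 1 and 1.16 without KO dam 4, and passed in neither case (limma adjusted p = 0.888 and 0.133).

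**Figure D2:**
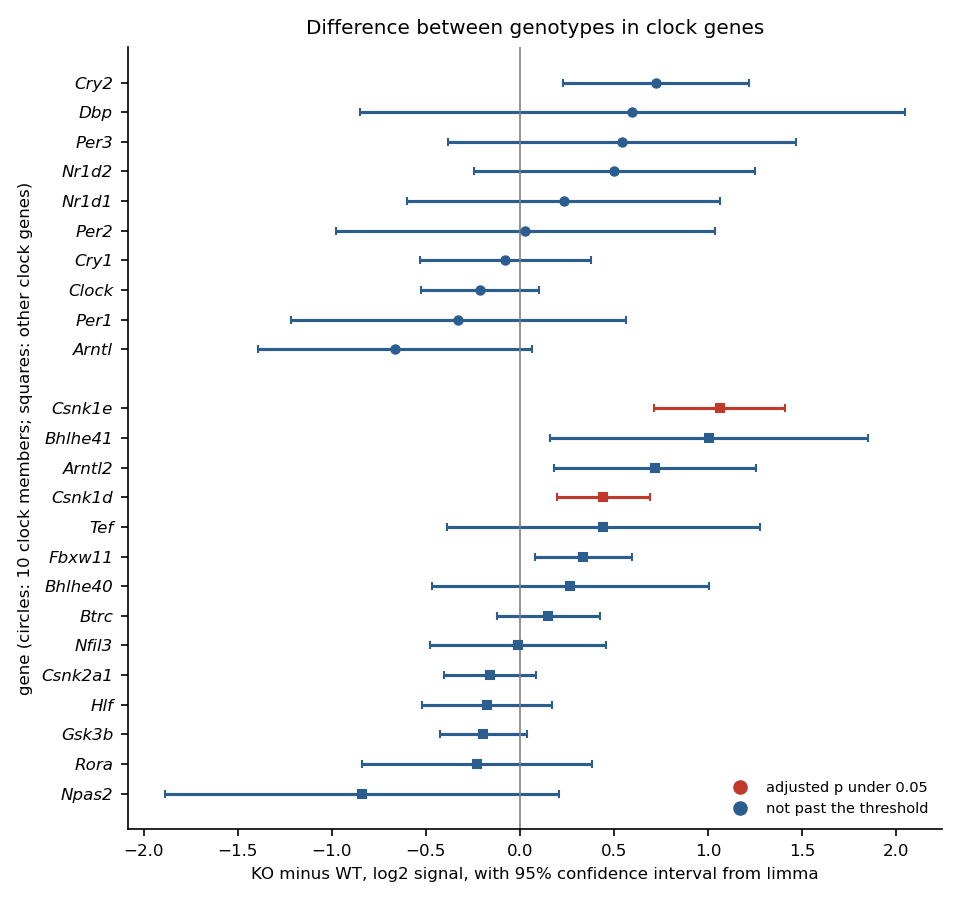
Difference in log2 signal (KO minus WT) of the 10 clock genes, as circles, and of 14 other clock genes, as squares, with 95% confidence intervals from limma and in red the genes with an adjusted p under 0.05. None of the circles is red, and the red squares are Csnk1e at 1.06 and Csnk1d at 0.44.

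In KO dams all 10 members, and in WT dams 6 of the 10, varied between dams more than the median gene did. The median SD over the 4 dams was 0.39 for the members and 0.23 for all genes tested in WT dams, and 0.65 and 0.19 in KO dams. Every SD here is that of the brightest probe of a gene. Among KO dams Dbp had an SD of 1.34, at percentile 99.3 of all genes tested, followed by Per2 at percentile 98.1, Per3 at 97.2, Per1 at 97.0 and Arntl at 95.7. The place of Per2 depended on the probe. On A_52_P536869 its KO signals ran only from 5.59 to 6.02, beside 6.77 to 9.04 on the brightest probe. In WT dams the SD of Dbp was 0.69, at percentile 94.2, with Nr1d1 at 91.8 and Nr1d2 at 90.7, while Arntl (49.0), Cry2 (47.9), Cry1 (30.5) and Clock (23.4) lay below the median gene.

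Above the 90th percentile of the SD stood 3 members in WT dams and 6 in KO dams, and above the 95th there were 0 and 5. Clock was the steadiest member in both genotypes, at percentile 23.4 in WT and 59.7 in KO dams. The SD of Nr1d1 and of Nr1d2 was slightly larger in WT than in KO dams, and that of the other 8 members was larger in KO dams. These are descriptions of 4 dams per genotype, and the difference in spread between the genotypes was not tested.

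**Figure D3:**
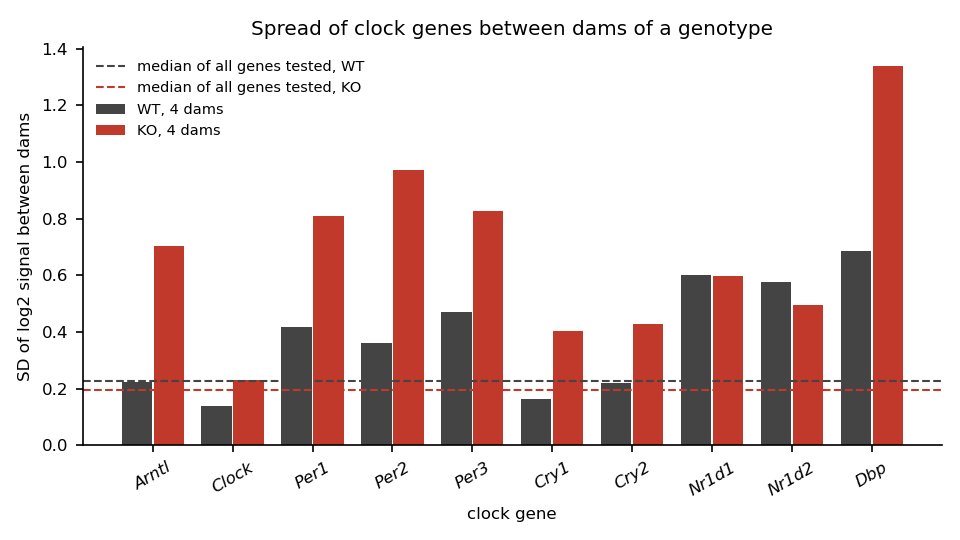
SD of the log2 signal over the 4 dams of each genotype for the 10 clock genes on their brightest probes, as bars. Dashed lines are at the median SD of all genes tested in each genotype. Dbp has the tallest bars, 0.69 in WT and 1.34 in KO dams, and the bars of Clock are among the lowest.

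The members were set side by side dam by dam, each on its brightest probe. When the mean of each gene over the 8 arrays was subtracted, Dbp, Per2, Per3, Nr1d1, Nr1d2 and Cry2 were above their means in KO dams 1 and 2, where Arntl and Clock were below theirs. In KO dam 4, Arntl, Clock and Cry1 were above and the other 7 below. KO dam 3 lay close to the middle, with no member farther than 0.54 from its mean.

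For a value per dam, the genes of the E-box and D-box arm (Nr1d1, Nr1d2, Dbp, Per1, Per2 and Per3) were averaged after centring. So were Arntl, Clock and Cry1, the arm that peaks at about the opposite time. Cry2 was in neither arm. The name of the first arm does not follow the letters found above, where Cry1 held an E-box and Nr1d2 and Dbp held no element. The first average was -0.42, 0.08, -0.53 and 0.35 in WT dams 1 to 4 and 0.74, 0.81, -0.21 and -0.81 in KO dams 1 to 4. The second was 0.20, 0.21, -0.06 and 0.29 in WT dams and -0.75, -0.21, 0.08 and 0.25 in KO dams. Their difference was -0.62, -0.14, -0.47 and 0.06 in WT dams and 1.496, 1.02, -0.29 and -1.06 in KO dams.

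KO dams 1 and 2 thus had the highest balance of the arms, KO dam 4 the lowest, and the 4 WT dams and KO dam 3 lay between. This held for the brightest probes. On the other probes of Per2 and Nr1d1, KO dam 3 and not KO dam 4 was the lowest of the KO dams. The range of the balance was 0.69 in WT dams and 2.56 in KO dams. Its mean was higher in KO dams by 0.58, less than the SD of 1.18 between KO dams, and by 0.49 with the mean of the probes of a gene. The arms were picked from knowledge of the clock and with earlier results of these data known, so no test was made of them. The values do not tell an hour of the day, and whether the dams were taken at different hours was not tested.

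**Figure D4:**
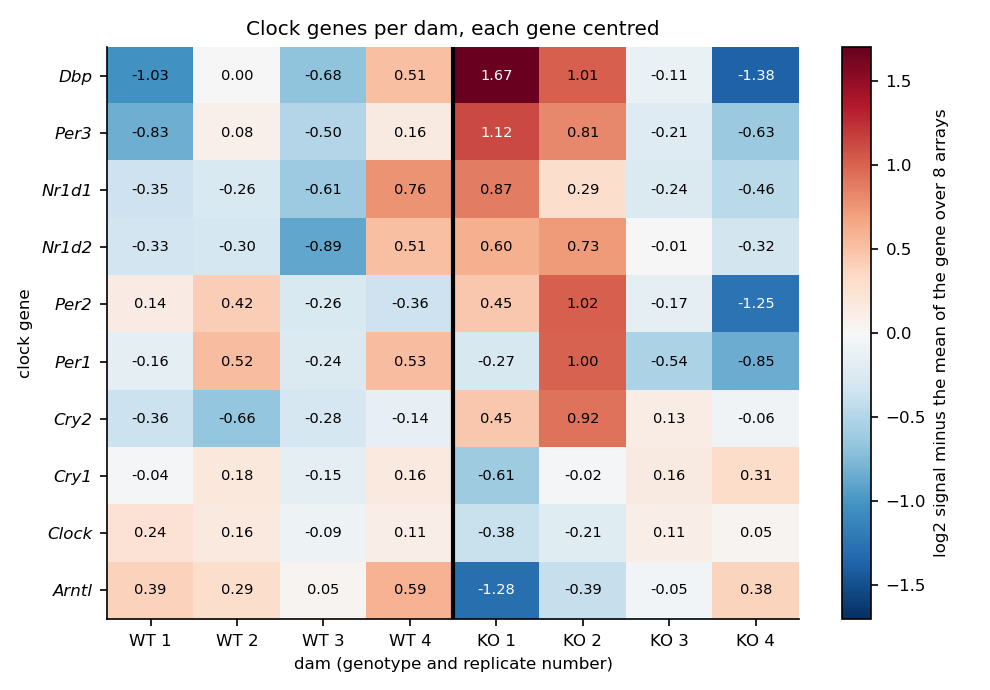
Log2 signal of each clock gene minus its mean over the 8 arrays, with 1 column for each dam and red for above and blue for below the mean. The columns of KO 1 and KO 2 are red for Dbp and Per3 and blue for Arntl, and in the column of KO 4 Dbp is at -1.38 and Arntl at 0.38.

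Relations to Arntl were computed for the other 9 members over the 8 arrays. All permutation tests were exact and two-sided, and they exchanged the 8 arrays freely, without regard to genotype, slide or replicate number. Clock had a Pearson's r of 0.887 (exact permutation p = 0.00469, p = 0.0422 after adjustment over the 9 relations) and a Spearman's rho of 0.667 (exact permutation p = 0.0831, adjusted p = 0.249). Cry1 had r = 0.847 (exact permutation p = 0.0214, adjusted p = 0.0652) and rho = 0.524 (exact permutation p = 0.197, adjusted p = 0.295). Clock was the only one of the 9 to pass, and by r alone. Each gene was taken on its brightest probe, and the other probes of Clock were not used.

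Of the genes of the other arm, Per3 had r = -0.763 (exact permutation p = 0.0217, adjusted p = 0.0652) with rho = -0.571 (exact permutation p = 0.151, adjusted p = 0.295). Dbp had r = -0.733 (exact permutation p = 0.0308, adjusted p = 0.0694) with rho = -0.548 (exact permutation p = 0.171, adjusted p = 0.295). Neither passed after adjustment. For the remaining 5 members r lay between -0.668, for Cry2, and 0.02, for Per1, with adjusted p of at least 0.137 in exact permutation tests.

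These relations rested on KO dams 1 and 2, whose Arntl signals were farthest from the median. Without them r was 0.395 for Clock, 0.330 for Cry1, 0.152 for Per3 and 0.105 for Dbp, and it turned from -0.499 to 0.630 for Nr1d1 and from -0.476 to 0.529 for Nr1d2. After subtraction of the genotype means r over the 8 arrays was 0.835 for Clock, 0.955 for Cry1, -0.702 for Per3 and -0.718 for Dbp. Within a genotype, which is also within a slide, 4 arrays are too few for a correlation.

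Among the other 14135 genes with a spread, the 3 whose signals were most like those of Arntl after subtraction of the genotype means were Gnai3 (r = 0.986), AI987944 (r = 0.971) and Klhl8 (r = 0.964). Cry1 ranked 5th and Clock 160th. From the other end of that order Bhlhe40, which encodes an E-box repressor, was 190th, Dbp 714th, Per3 792nd, Per2 1220th, Nr1d1 2447th, Cry2 2974th, Nr1d2 4233rd and Per1 5028th. For Nr1d1 the 3 most alike were Mcph1 (r = 0.997), Ppcdc (r = 0.975) and Sytl3 (r = 0.967). Nr1d2 ranked 9th, Dbp 33rd, Tef 63rd and Per3 69th among them, but Cry2 902nd, Per1 1132nd and Per2 2085th. From the other end Clock was 2055th, Arntl 2225th and Cry1 2385th. This order used the brightest probe of Nr1d1, whose probes disagreed. With 8 arrays such orders are a description of likeness only.

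Outside the 10 members, 19 further genes of the oscillator were listed by role and 16 of them were tested. Ciart, Rorb and Fbxl21 had a probe that did not pass the filter on dim signals. Of the 16, 3 passed with a higher and 0 with a lower signal in KO dams, beside 7.53% and 8.96% of all genes, and their median difference was 0.30 against -0.02. Described here are Csnk1e and Csnk1d, the casein kinases that phosphorylate PER proteins and mark them for decay.

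Csnk1e signals were 12.71, 12.21, 12.31 and 12.73 in WT dams and 13.56, 13.74, 13.55 and 13.35 in KO dams. Every KO dam was above every WT dam, and the difference was 1.06 (SE 0.15, limma adjusted p = 0.00873). It passed in all 15 alternatives, with adjusted p of 0.00841 to 0.0335.

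Csnk1d signals were 13.42, 13.13, 13.12 and 13.20 in WT dams and 13.58, 13.58, 13.81 and 13.68 in KO dams. The genotypes did not overlap, and the difference of 0.44 (SE 0.11) passed with a limma adjusted p of 0.0309. The call was lost in 10 of 15 alternatives, among them the fit with the replicate number as a block (limma adjusted p = 0.0527), the 75th percentile scaling (0.0697) and the mean of the probes of a gene (0.0757). Leaving out any array other than WT dam 1 also ended it, with limma adjusted p between 0.0503 and 0.0910.

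Of the genes that were not called, those with the smallest p follow. Arntl2, a paralog of Arntl, differed by 0.72 (limma adjusted p = 0.0658), and Fbxw11, a ubiquitin ligase subunit that acts on PER, by 0.34 without overlap of the genotypes (limma adjusted p = 0.0713). Bhlhe41, an E-box repressor, differed by 1.00 (limma adjusted p = 0.0911), and was called when replicate numbers were a block (0.0263), without WT dam 1 (0.0492) and without KO dam 4 (0.0277), in a range of 0.0263 to 0.217.

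Tef, a relative of Dbp, was not called. Its signals were 9.88, 10.39, 9.88 and 10.68 in WT dams and 11.19, 11.31, 10.40 and 9.70 in KO dams. As for Dbp, KO dams 1 and 2 were the highest of the 8 and KO dam 4 the lowest, and the difference was 0.44 (SE 0.36, limma adjusted p = 0.410). Each of the 2 start windows of Tef held the E-box, as did 1 of the 2 of the output gene Tspan4, and the 4 windows of Csnk1e held none of the elements searched.

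Of 6 genes with a daily rhythm in most peripheral tissues, 1 passed, higher in KO dams, a share near the 16.5% of all genes called in either direction. Tspan4, a tetraspanin, gave 12.91, 13.03, 12.49 and 12.63 in WT dams and 14.07, 13.93, 13.34 and 13.19 in KO dams. The genotypes did not overlap, KO dams 1 and 2 were again the highest, and the difference was 0.87 (SE 0.22, limma adjusted p = 0.0355). Its call was lost without the filter on dim probes (adjusted p = 0.0542), and without WT dam 2, 3 or 4 or KO dam 1, 2 or 3 (limma adjusted p = 0.0626 to 0.0851). The median of the 6 was 0.24. Usp2, a ubiquitin protease, had its highest signals in dam 2 of each genotype, at 9.99 in WT and 10.999 in KO, and differed by 0.56 (limma adjusted p = 0.358). Lonrf3 differed by 0.54 (limma adjusted p = 0.370), Nampt by -0.48 (0.406) and Noct by -0.06 (0.761).

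Glucocorticoids and body temperature both have a daily rhythm, so genes known to respond to them were set beside the members. Of 6 glucocorticoid-responsive genes 5 were tested, and 1 passed as lower and 0 as higher in KO dams, beside 8.96% and 7.53% of all genes, with a median difference of -0.01. Sgk1, a kinase that glucocorticoids induce, gave 13.31, 13.92, 13.06 and 13.83 in WT dams and 12.50, 12.51, 11.71 and 11.73 in KO dams. It fell by 1.42 without overlap of the genotypes (SE 0.27, limma adjusted p = 0.0171), and the call was lost without KO dam 3 (0.0528), the highest adjusted p of its alternatives, which began at 0.0150. Errfi1 differed by 0.39 (limma adjusted p = 0.342), Tsc22d3 by -0.26 (0.697), Fkbp5 by 0.18 (0.820) and Klf9 by -0.01 (0.987). The centred mean of the 5 genes was highest in dam 2 of each genotype, at 0.60 in WT and 0.75 in KO. Any part of this in the Per signals of KO dam 2 was not tested.

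Of 6 temperature-responsive genes, 1 passed as higher and 1 as lower in KO dams, beside 7.53% and 8.96% of all genes, with a median of 0.08. Cirbp, an RNA-binding protein induced by cold, gave 11.29, 10.39, 11.06 and 10.74 in WT dams and 12.14, 11.50, 12.07 and 11.53 in KO dams. The genotypes did not overlap, and it was higher by 0.94 (SE 0.23, limma adjusted p = 0.0317). The heat shock gene Hsph1 fell by 1.01 (SE 0.28, limma adjusted p = 0.0428), with WT signals from 11.52 to 12.77 and KO signals from 10.84 to 11.64, which overlap.

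The Cirbp call was lost without WT dam 2, 3 or 4 or KO dam 1, 2 or 3 (limma adjusted p = 0.0506 to 0.0888). The Hsph1 call was lost without WT dam 1, 2 or 3 or any KO dam (limma adjusted p = 0.0522 to 0.104) and without the filter on dim probes (0.0653). Rbm3, also induced by cold, differed by 0.18 (limma adjusted p = 0.403), and the heat shock genes Hsp90aa1 by 0.06 (0.803), Hspa8 by 0.10 (0.825) and Hspa1b by -0.09 (0.873).

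Markers of the cells of the gland moved with genotype in part. Of the marker lists, 2 of 4 neutrophil, 2 of 5 adipocyte, 1 of 4 fibroblast and 1 of 7 luminal genes passed as higher and 2 of 4 T cell genes as lower in KO dams, beside 7.53% and 8.96% of all genes, while 0 of the tested basal, macrophage, B cell, endothelial and muscle genes passed. The centred mean of the neutrophil list ran from -1.86 to -0.79 in WT and from 0.93 to 2.30 in KO dams. The 2 neutrophil genes called, Ngp and Camp, were well above background on only 4 arrays each and entered the test through their KO signals. S100a8 and S100a9, well above background on all 8 arrays, were not called (limma adjusted p = 0.357 and 0.0566). The differences were 3.96 for Ngp, 4.74 for Camp, 0.49 for S100a8 and 2.19 for S100a9. The mean of the 4 fibroblast genes was -0.14, -0.24, -0.11 and -0.40 in WT dams 1 to 4. In KO dams 1 to 4 it was 0.50, 0.33, 0.08 and -0.02, the order in which Dbp also stood there. The macrophage mean fell in that order in KO dams as well, from 0.25 to -0.40. Not every gene of the fibroblast and macrophage lists kept the order of its mean. The adipocyte mean ran the other way, rising from -0.05 in KO dam 1 to 0.35 in KO dam 4. The remaining marker lists followed neither order. In WT dams the orders differed, and WT dam 4 had the lowest fibroblast mean and the highest Dbp signal. The luminal mean ran from -0.11 to 0.01 in WT and from -0.05 to 0.10 in KO dams. Of the muscle markers Ckm and Myh4 were too dim to be tested. The part of these cell markers in the values of the clock genes was not tested.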

How the data were processed

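Each of the 8 samples was the gland RNA of a separate dam on a one-colour Agilent mouse array, labelled with Cy3. The authors deposited the scanner output, in which Agilent Feature Extraction 10.7 (per the submitters' processing notes) had subtracted background from the intensity of each spot, and a table of log2 values that they had quantile-normalized in GeneSpring. Here the log2 of the processed intensity was taken and quantile-normalized over the 8 arrays. Control spots and the 64 to 100 outlier spots of each array were left out, and spots of a probe were averaged. Of 27094 probes with an NM accession, 26728 were named through RefSeq. The brightest probe stood for a gene, and a probe was kept where either genotype had it well above background on all 4 arrays. The share of probes well above background was 66.9% to 75.3% on WT and 66.8% to 70.9% on KO arrays, and 0 spots were saturated.

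Genotypes were compared with limma 3.58.1 in R 4.3.3 (lmFit and eBayes), without a block, with Benjamini-Hochberg adjustment over all 14137 genes, and a gene was called at an adjusted p under 0.05. The scripts were tested on simulated data. Alternatives were the 75th percentile scaling, normexp background correction (offset 50, on the median spot signal), the authors' table, no filter on dim probes, the mean of the probes of a gene, the replicate block, the methods' t-test and leaving out each array. The fit of each probe separately and the arms of the clock under other settings were added after the data were seen. The members and lists were chosen with earlier results of these data known. Named were all members, every called gene of the other clock, output, glucocorticoid and temperature lists with up to 4 others of smallest p, the 3 genes most like Arntl and like Nr1d1, and Zbtb7b, except for 2 genes of the list of other clock genes, which are counted in it but are not reported here by name. Thra, Tef, Bhlhe40, Gsk3b and the 4 neutrophil markers were named after their values were seen.

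The paper describes 4 sets of biological replicates and not what a set shares. For replicate numbers 1 to 4, the r between the WT and the KO array's deviations from their genotype means was 0.22, 0.16, 0.30 and 0.28. Its mean over unlike numbers was -0.08, a value largely set by the subtraction of the genotype means and so no separate evidence of pairing. A blocked fit was run as well. Every value comes from the fit without the block unless the block is named.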

Additional observations from a re-analysis of the deposited data

Results flagged for a closer look

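Of 86 groups of 4 arrays, for 43 genes of the clock, output, hormone and temperature lists in each genotype, 3 held an array that lay apart from the other 3 by Dixon's test, which chance does in about 1 group of 20. None of them was a member. The kinase gene Gsk3b was at 8.71 in KO dam 4 and between 8.46 and 8.50 in the other KO dams. Usp2 was at 9.99 in WT dam 2 and between 9.01 and 9.13 in the other WT dams. Hsph1 was at 11.64 in KO dam 3 and between 10.84 and 10.97 in the other KO dams.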

How the results depend on the processing

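Arntl, Clock, Per1, Per3, Cry2, Nr1d2 and Dbp kept their direction in every alternative. Cry1 was at 0.11 without KO dam 1, the upper end of its range from -0.19 when 1 array was left out. Per2 was at -0.028 with the mean of its probes, at -0.085 on probe A_52_P536869, and at -0.05, -0.08, -0.12 and -0.31 without WT dam 3, WT dam 4, KO dam 1 and KO dam 2, and reached 0.45 without KO dam 4. Nr1d1 was at -0.24 with the mean of its probes, at -1.06 on probe A_52_P130961 and ran from -0.020 without KO dam 1 to 0.52 without WT dam 4. The number of members called was 1 with the 75th percentile scaling, and the number of members without overlap was 0 with the mean of the probes. Leaving out 1 array gave 0 to 1 members called (1 without KO dam 4, Cry2), 1 to 2 without overlap (Per1 joined without KO dam 2 and Arntl without KO dam 4), 1 to 4 other clock genes, 0 to 1 output genes, 0 to 1 glucocorticoid genes and 0 to 1 temperature genes called. The output genes called were 0 without the filter on dim probes and 0 with the methods' t-test, and the temperature genes 1 and 0. Over all genes, 2331 were called, 1389 with the methods' t-test, and 519 (without KO dam 3) to 3076 (without WT dam 1) with 1 array left out, among them 762, 984, 732 and 953 without WT dam 2, WT dam 3, KO dam 1 and KO dam 2. With the replicate number as a block, 2762 genes and 0 members were called, and among the genes of the lists it ended the call of Csnk1d and added that of Bhlhe41. In all alternatives the cause of such a change was not tested.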
